A study of Rattus norvegicus with 6 samples.

Results

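The miR-378 family was followed in small RNA libraries from fibroblasts of rat sciatic nerve and from the extracellular vesicles (EV) that these cells release. The family consisted of 3 rows of the deposited table of 1071 miRNA rows, of which 552 are known rat miRNAs: rno-miR-378a-3p, rno-miR-378a-5p and rno-miR-378b. Rows were taken by their names, but the family was chosen by earlier results of the same contrast, in which miR-378a-3p stood higher in EV. Its levels and arm ratios between EV and cells are therefore given as a description, with SD and standard errors but no test. The libraries comprised 3 of vesicle RNA (labelled EV) and 3 of RNA inside the cells (labelled Intracellular). All of them came from untreated, wild-type cells and are marked as batch 1. Strain, sex and age of the rats, and how the vesicles were isolated, do not appear in the sources used here. Nothing in the labels says that replicates came from separate cultures or animals, so the spread between them may be technical.

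Mature miRNAs come from the arms of a hairpin, named 5p and 3p. One arm usually guides the silencing of mRNAs through its seed, bases 2 to 8 from the 5′ end, and the other is mostly degraded. The hairpin of miR-378a lies in an intron of Ppargc1b, which encodes PGC-1β, a coactivator of nuclear receptors that drives genes of mitochondria and fatty acid oxidation. In mice, miR-378a is abundant in muscle and brown fat, and its loss alters lipid metabolism and energy use. Vesicles carry a selection of the miRNAs of the cell that sheds them.

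The mature sequences, as deposited in DNA letters, are shown because a single base and a strand separate the rows that the results turn on. Capitals mark the seed.
miR-378a-3p: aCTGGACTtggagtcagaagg
miR-378a-5p: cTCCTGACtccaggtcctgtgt
miR-378b: aGTGGACTtggagtcagaagg
Counted from the 5′ end, miR-378b differs from miR-378a-3p by C2G alone, which lies in the seed, and the other 20 of 21 bases are identical. The 3 seeds thus differ, and none of them was found in another known rat miRNA of the table. For both arms of miR-378a the deposited letters equal those of RefSeq (table of assembly GRCr8) apart from U and T. Coordinates are not given, since that assembly is not the Rnor_6.0 build of the study. In the RefSeq table the gene of miR-378a lies within Ppargc1b and on its strand, and that of miR-378b lies within Ncoa2, which encodes another coactivator of nuclear receptors.

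The hairpin of miR-378a also overlaps that of another annotated rat miRNA, miR-3557, on the opposite strand. The deposited sequence of its 5p arm is gccttctgactccaagtccagt. Its reverse complement, with the bases shared with miR-378a-3p in capitals, is as follows.
miR-3557-5p, reversed and complemented: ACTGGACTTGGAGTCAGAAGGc
All 21 bases of miR-378a-3p are contained in it. Whether reads were counted by strand is not given in the sources used here, so reads of miR-378a-3p and miR-3557-5p may not have been told apart. The row of miR-3557-5p is no member of the family, and was chosen after its values were seen.

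EV libraries were shallow, with 81211 to 105578 counts against 1839047 to 8859302 in Intracellular libraries, so that, in counts scaled to a library of 1000000 (CPM), a count of 1 was worth 9.47 to 12.3 CPM in EV but 0.113 to 0.544 CPM in Intracellular libraries. By TMM factor, a scaling that assumes most miRNAs unchanged, Intracellular replicate 1 stood apart at 0.557, against 0.964 and 0.935 in the other Intracellular libraries. EV replicates 1, 2 and 3 had factors of 1.35, 1.26 and 1.17, all above the Intracellular ones, so this scaling also differed between the groups. Fibroblast and mesenchymal miRNAs (8 listed, such as miR-143-3p and miR-21-5p) took 448927 to 472202 CPM in EV, against 481660 to 499863 CPM in Intracellular libraries, and 2 of them were called higher and 4 lower with TMM (3 and 1 with total counts). A call is an edgeR adjusted p under 0.05 over the 328 rows tested, of which 25.3% were called higher and 17.1% lower with TMM, and 32.6% higher and 1.22% lower with total counts. Of these rows 290 are known miRNAs and the others are predicted, while the lists compared here hold known miRNAs alone. In a separate fit of known miRNAs alone with TMM, 67 of 290 were called higher and 37 lower. The shares over all rows are thus not those of known miRNAs. Of the 3 family rows, both arms of miR-378a passed the filter on low counts and miR-378b did not.

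miR-378a-3p, the main arm, took a far larger share of the counts in vesicles than in cells. It had 301, 553 and 247 counts in EV replicates 1, 2 and 3, or 3706, 5238 and 2675 CPM. In Intracellular replicates 1, 2 and 3 it had 438, 1496 and 4756 counts, or 238.2, 451.5 and 536.8 CPM. Every EV library stood above every Intracellular one, as it did for 41.8% of the 328 rows tested. The level averaged 3873 ± 1289 CPM in EV, against 408.8 ± 153.8 CPM in Intracellular libraries (SD, n = 3 each). The ratio of these means was 9.47, and between single libraries the fold ran from 4.98 to 22.0. On the log2 scale the fitted difference was 2.64 (SE 0.23, edgeR with TMM) or 3.24 (SE 0.34) with total-count scaling. Over all rows tested the median was -0.07 with TMM and 0.55 with total counts, so that miR-378a-3p lay above the median of all rows under both scalings.

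**Figure D1:**
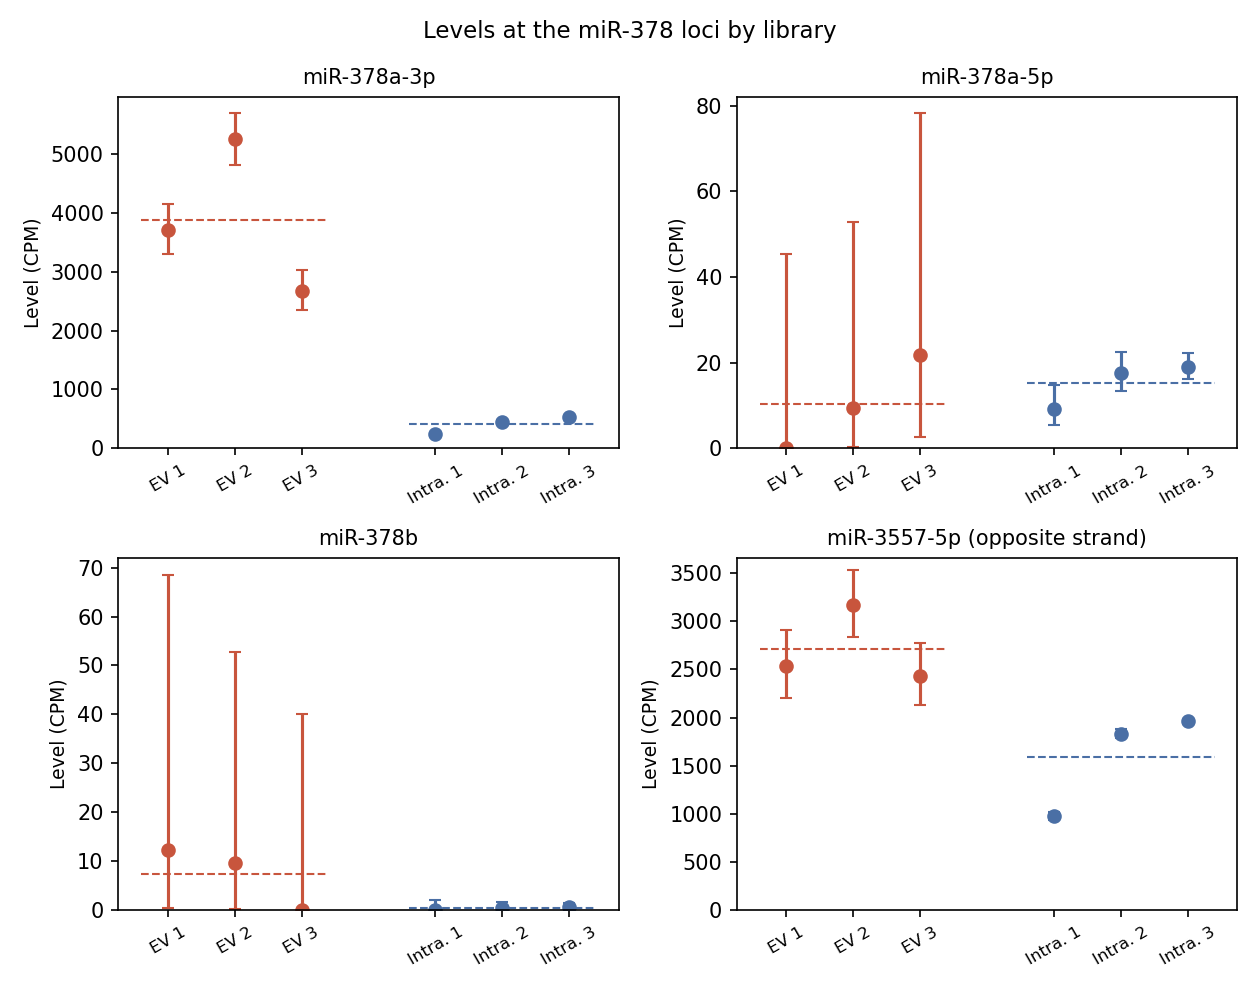
Level in CPM (counts scaled to a library of 1000000) in each EV library (left, red) and each Intracellular library (right, blue) for the 3 rows of the miR-378 family and for miR-3557-5p on the opposite strand. Points are libraries, bars are exact 95% Poisson intervals of the count (counting error only) and dashed lines are group means; miR-378a-3p lies at 2675 CPM or more in EV and at 536.8 CPM or less in Intracellular libraries, while the groups overlap for miR-378a-5p.

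EV libraries also differed among themselves. Exact 95% Poisson intervals of miR-378a-3p, which cover counting error only since PCR copies of a molecule are not told apart, ran from 4810 to 5693 CPM in EV replicate 2 and from 2352 to 3030 CPM in EV replicate 3. These intervals did not meet. The coefficient of variation was 33.3% in EV and 37.6% in Intracellular libraries. With TMM scaling the EV levels were 2740, 4170 and 2284 CPM, with a coefficient of variation of 32.1%, and the Intracellular levels were 427.4, 468.4 and 574.0 CPM, with one of 15.4%. The low CPM of Intracellular replicate 1 thus came close to its group under that scaling, and without this library the fitted log2 difference was 2.62 (SE 0.30, edgeR).

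By rank, miR-378a-3p was number 31, 27 and 34 among the 552 known miRNAs in EV replicates 1, 2 and 3, and number 85, 85 and 74 in Intracellular replicates 1, 2 and 3. It took 0.268% to 0.524% of the counts of an EV library and 0.0238% to 0.0537% of those of an Intracellular library. These are shares of a library and not amounts per vesicle or cell. More copies per vesicle or cell, more vesicles or cells that carry the miRNA, and less of other miRNAs cannot be told apart. In mean EV level its neighbours were let-7d-5p (3891 ± 216.5 CPM in EV) above it and miR-145-5p (3024 ± 70.5 CPM in EV) below it (SD, n = 3), and the EV range of miR-378a-3p spanned the means of both. These neighbours had 4304 ± 330.1 CPM and 2863 ± 908.2 CPM in Intracellular libraries. Of 158 known miRNAs with at least 10 counts in every library, miR-378a-3p had the ratio of mean CPM next below those of miR-122-5p (62.2), miR-3473 (57.8) and miR-423-5p (15.3), which are named here after their values were seen. That minimum leaves out rows with few counts in EV or in cells, and 10 counts are a higher CPM in the shallow EV libraries. miR-451-5p, with 10 EV counts in all and a fitted log2 difference of 3.71 (edgeR with TMM), is left out in this way. By fitted log2 difference miR-378a-3p was number 16 of the 290 known miRNAs tested, with TMM and with total counts alike.

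**Figure D2:**
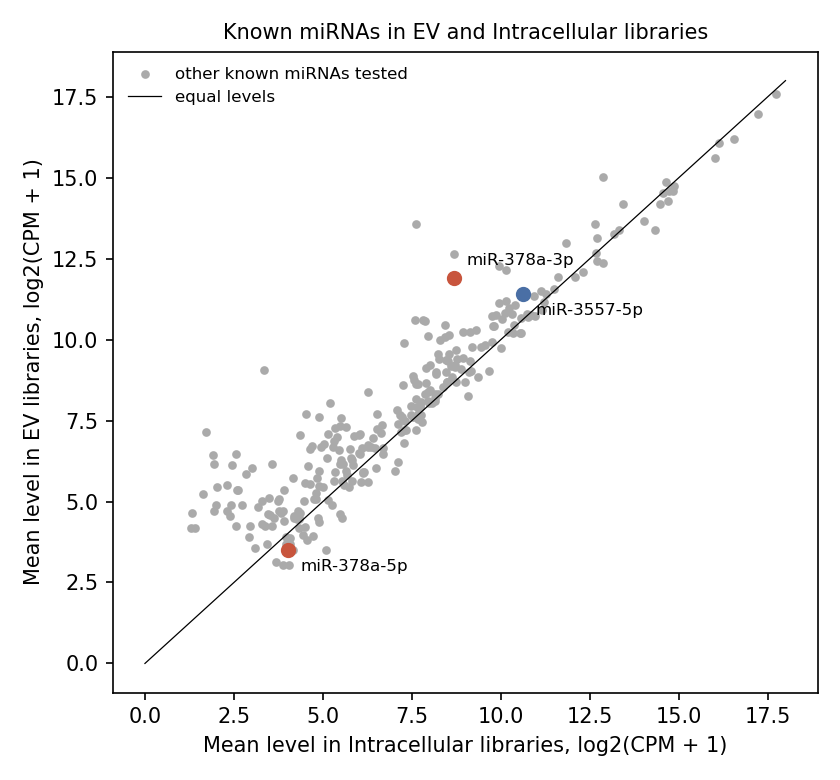
Mean level of each of the 290 known miRNAs tested, as log2(CPM + 1), in EV libraries (vertical) against Intracellular libraries (horizontal), with the line of equal levels. miR-378a-3p lies well above the line at 3873 CPM in EV against 408.8 CPM in Intracellular libraries, miR-378a-5p lies just below it, and miR-3557-5p lies nearer to it than miR-378a-3p.

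Ratios within a library do not depend on library scaling, but they depend on the miRNAs chosen as references. Against the geometric mean of 5 miRNAs often used as references (miR-16-5p, miR-103-3p, miR-191a-5p, miR-26a-5p and miR-24-3p), miR-378a-3p stood at 84.9%, 123.9% and 58.8% in EV replicates 1, 2 and 3, and at 10.7%, 10.1% and 11.9% in Intracellular replicates 1, 2 and 3. The Intracellular libraries lay close together by this measure and the EV libraries were spread. On the log2 scale the ratio averaged -0.23 ± 0.54 in EV, against -3.20 ± 0.12 in Intracellular libraries (SD, n = 3 each), a difference of 2.97. With each of the 5 miRNAs alone it ran from 2.39 (miR-24-3p) to 3.37 (miR-26a-5p). Of the 5, 2 were themselves called lower in EV with TMM (miR-26a-5p and miR-103-3p) and 0 with total counts. miR-24-3p varied among Intracellular replicates 1, 2 and 3, with 5372, 14080 and 13519 CPM. Per 100 counts of miR-16-5p there were 716.7, 850.8 and 548.9 counts of miR-378a-3p in EV and 113.2, 83.2 and 81.8 in Intracellular libraries.

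miR-378a-5p, the minor arm, was sparse in both groups. It had 0, 1 and 2 counts in EV replicates 1, 2 and 3, or 0, 9.47 and 21.7 CPM, and 17, 58 and 169 counts in Intracellular replicates 1, 2 and 3, or 9.24, 17.5 and 19.1 CPM. The groups overlapped, and a count of 0 in EV replicate 1 allows a level of up to 36.9 CPM by a limit of 3 counts, while the upper end of its exact 95% Poisson interval, wider because that interval has an upper and a lower tail, was 45.4 CPM. Pooled over libraries, the ratio of EV to Intracellular CPM was 0.617, with an exact 95% interval of 0.126 to 1.83 that covers counting error only. The fitted log2 difference was -1.12 (SE 0.84, edgeR with TMM) and -0.54 (SE 0.94) with total counts. Without EV replicate 3 it was -2.18 (SE 1.05) and without EV replicate 1 it was -0.58 (SE 0.84), so the value rests on single EV counts and no direction is read from it.

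The balance of the arms was shifted further to the 3p arm in vesicles than in cells. The 5p arm made up 0%, 0.181% and 0.803% of the counts of both arms in EV replicates 1, 2 and 3, against 3.74%, 3.73% and 3.43% in Intracellular replicates 1, 2 and 3. Shares of the 2 groups did not overlap, and the Intracellular ones were nearly equal. Arm ratios of the groups likewise did not overlap, in either direction, for 52.1% of the 73 precursors with both arms tested. For 19.2% they were lower in every EV library. Exact 95% binomial intervals (Clopper-Pearson), which cover counting error only, reached up to 1.22%, 1.00% and 2.87% in EV and began at 2.19%, 2.85% and 2.94% in Intracellular libraries. Pooled, the share was 0.272% (0.0561% to 0.792%, 3 of 1104 counts) in EV and 3.52% (3.10% to 3.98%, 244 of 6934 counts) in Intracellular libraries. At the Intracellular share, the EV libraries would have held 38.8 counts of miR-378a-5p in place of 3. As log2 of 5p over 3p with a prior count of 1, the ratio averaged -7.57 ± 1.05 in EV, against -4.69 ± 0.10 in Intracellular libraries (SD, n = 3 each), a difference of -2.88. The prior count bears on this value, which was -3.42 with a prior count of 0.5 and -3.88 with one of 0.25.

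**Figure D3:**
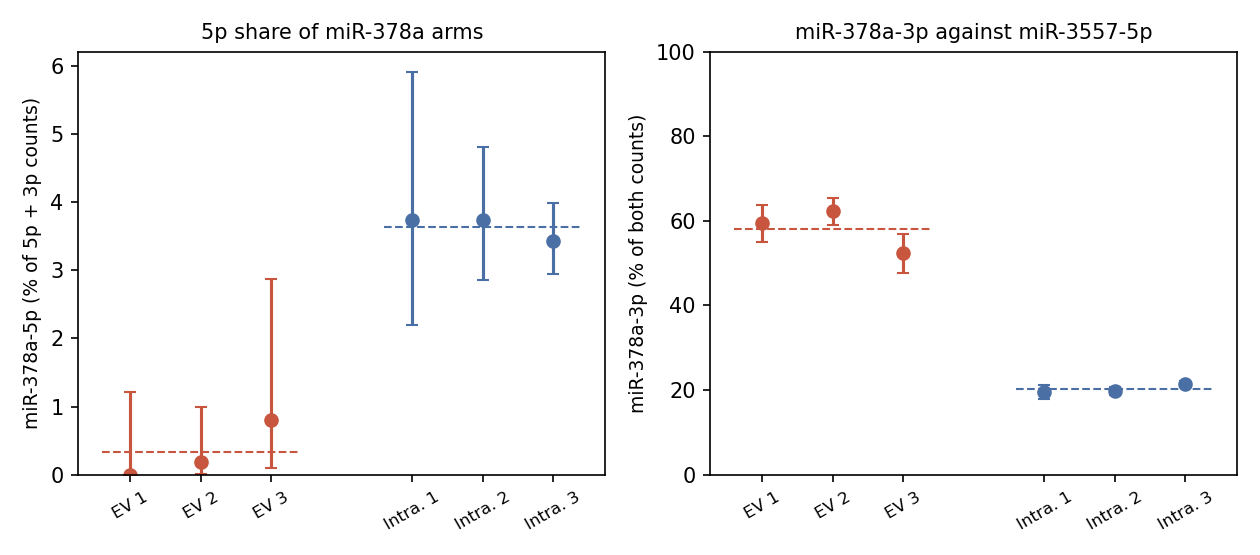
Left, miR-378a-5p as a percentage of the counts of both miR-378a arms; right, miR-378a-3p as a percentage of the summed counts of miR-378a-3p and miR-3557-5p, in EV libraries (red) and Intracellular libraries (blue). Points are libraries, bars are exact 95% binomial intervals and dashed lines are group means; the 5p share is 0.803% or less in EV and 3.43% or more in Intracellular libraries, and the miR-378a-3p share of the antisense pair is 52.3% or more in EV and 21.5% or less in Intracellular libraries.

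Among the 73 precursors of known miRNAs with both arms tested, the minor arm was taken as the one with the lower CPM summed over all 6 libraries. The median change of the minor over the major arm was 0.17 on the log2 scale, and the range ran from -2.88 to 3.33. miR-378a had the lowest value of all with a prior count of 1, 0.5 or 0.25 and with pooled counts, but it was number 4 without EV replicate 1 and number 2 without EV replicate 2 or without Intracellular replicate 1. The ratio was lower in every EV library than in every Intracellular library for 14 precursors, or 19.2%, miR-378a among them. The choice of minor arm uses the EV values too, and in 6 precursors, such as miR-140, that arm held most of the Intracellular counts. With the arm lower in Intracellular libraries on top, miR-378a was again the lowest, and 15.1% of precursors were lower in every EV library. With 5p over 3p throughout it was number 2 after miR-148a (-2.92), and 32.9% were lower in every EV library. By size in either direction miR-378a was number 3, after miR-345 (3.33) and miR-148a. Of similar size was the rise of miR-134 (2.70, from 5 minor-arm counts in EV), also named after its values were seen. Next to miR-378a among the falls, and named after their values were seen, came miR-423 (-2.75), miR-455 (-2.67), miR-152 (-2.43) and miR-140 (-2.41). The major arms of these 4 had log2 differences in level of 3.27, 2.21, 1.50 and 2.02 (edgeR with TMM), and that of miR-378a had 2.64. The EV value of miR-378a rests on the fewest minor-arm counts of these, 3 against 190, 28, 32 and 73.

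**Figure D4:**
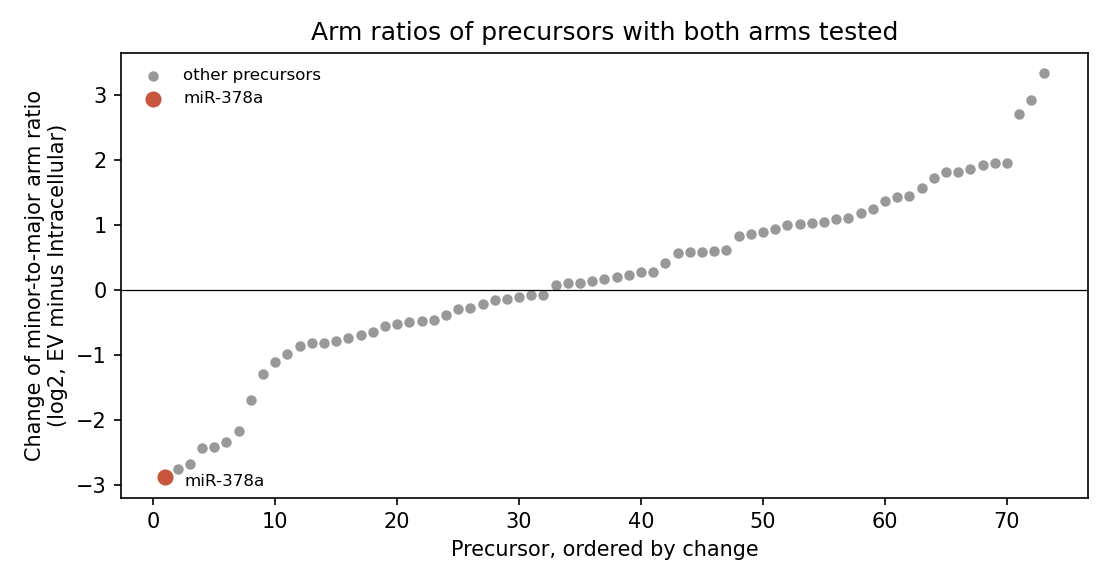
Change of the minor-to-major arm ratio (log2, EV minus Intracellular, prior count 1) for the 73 precursors with both arms tested, ordered from the largest fall. miR-378a lies at the low end at -2.88, and the highest precursor lies at 3.33.

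miR-378b was near the limit of detection. It had 1, 1 and 0 counts in EV replicates 1, 2 and 3 and 0, 1 and 5 counts in Intracellular replicates 1, 2 and 3. Pooled, this was 7.17 CPM in EV, against 0.428 CPM in Intracellular libraries, a ratio of 16.7 from 2 EV and 6 Intracellular counts. Its exact 95% interval, 1.65 to 93.6, covers counting error only, and no direction is read from so few counts. Per 100 counts of miR-378a-3p, pooled miR-378b amounted to 0.182 in EV, against 0.0897 in Intracellular libraries. How reads that differ by 1 base were assigned is not given in the sources used here, so this row is uncertain. miR-378a-3p made up 99.2% to 99.7% of all family counts in EV and 96.2% to 96.5% in Intracellular libraries.

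The row on the opposite strand was itself abundant. miR-3557-5p had 206, 335 and 225 counts in EV replicates 1, 2 and 3, or 2537, 3173 and 2437 CPM, and 1793, 6074 and 17360 counts in Intracellular replicates 1, 2 and 3, or 975, 1833 and 1960 CPM. It averaged 2716 ± 399.3 CPM in EV, against 1589 ± 535.7 CPM in Intracellular libraries (SD, n = 3 each). With TMM scaling it did not pass the threshold of an adjusted p under 0.05 (log2 difference 0.17, SE 0.19, edgeR adjusted p = 0.473), and with total counts it was called higher in EV (0.77, SE 0.30, edgeR adjusted p = 0.0464). Inside the cells miR-3557-5p thus outnumbered miR-378a-3p, and in vesicles the order turned round. There were 1.46, 1.65 and 1.10 counts of miR-378a-3p for each count of miR-3557-5p in EV replicates 1, 2 and 3, and 0.244, 0.246 and 0.274 in Intracellular replicates 1, 2 and 3. That ratio averaged 1.40 ± 0.281 in EV, against 0.255 ± 0.0166 in Intracellular libraries (SD, n = 3 each).

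Taken as 1 quantity, the counts of miR-378a-3p and miR-3557-5p still stood higher in vesicles, but by less. The sum was 6243, 8411 and 5112 CPM in EV replicates 1, 2 and 3 and 1213, 2285 and 2496 CPM in Intracellular replicates 1, 2 and 3. The groups did not overlap, and 41.8% of the 328 rows tested likewise stood higher in every EV library than in every Intracellular one. It averaged 6589 ± 1676 CPM in EV, against 1998 ± 688.0 CPM in Intracellular libraries (SD, n = 3 each), a ratio of 3.30, and the fitted log2 difference was 1.12 (SE 0.21, edgeR with TMM), against 2.64 for miR-378a-3p alone. How reads of this pair were assigned was not tested. Of the counts of miR-378a-5p, miR-378a-3p and miR-3557-5p together, the 5p arm made up 0%, 0.112% and 0.422% in EV and 0.756%, 0.760% and 0.758% in Intracellular libraries. The shares again did not overlap, where 19.2% of the 73 precursors had a lower arm ratio in every EV library. With the sum in place of miR-378a-3p, the log2 difference in arm ratio was -1.37.

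The 5 known miRNAs whose profile over the 6 libraries lay nearest to that of miR-378a-3p were miR-183-5p, miR-455-5p, miR-182, miR-140-3p and miR-320-3p. Likeness was the Euclidean distance between log2(CPM + 1) profiles centred on their own mean, among 157 other known miRNAs with at least 10 counts in every library. The distances were 0.55, 0.59, 0.86, 1.00 and 1.02, against a median of 3.66. All profiles share the same 6 libraries and their depth. The 5 were picked by these same values, so a shared order of libraries is no separate result. miR-455-5p, known for its role in brown fat in mice, had 1478, 2131 and 1061 CPM in EV, against 120.7, 282.2 and 270.7 CPM in Intracellular libraries, so that EV replicate 2 was highest and EV replicate 3 lowest, as for miR-378a-3p. miR-140-3p, of a connective tissue miRNA encoded in an intron of Wwp2, showed the same order in EV, with 714.2, 1544 and 617.4 CPM. So did miR-182, with 283.2, 293.6 and 216.6 CPM in EV, from 74 EV counts in all. miR-320-3p, which bypasses Drosha processing, did not, with 1576, 1411 and 1700 CPM in EV. Nor did miR-183-5p, the nearest, with 234.0, 227.3 and 162.5 CPM in EV, from 58 EV counts in all. EV replicates 1 and 2 lay close together in miR-182 and miR-183-5p, and with so few counts their order is not read.

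**Figure D5:**
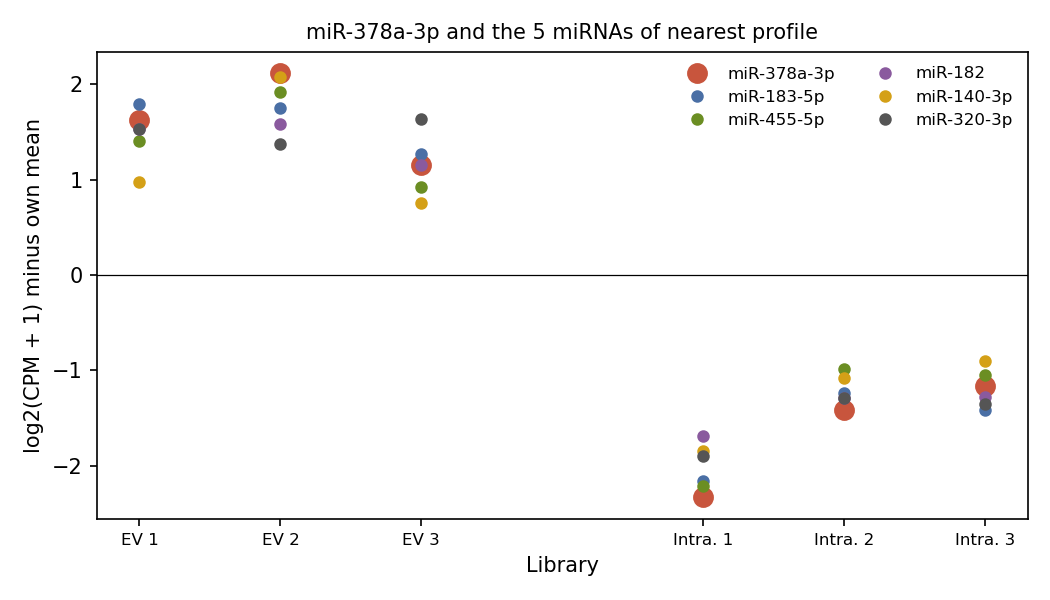
log2(CPM + 1) minus its mean over the 6 libraries, for miR-378a-3p (large red points) and the 5 known miRNAs of nearest profile, in EV libraries (left) and Intracellular libraries (right). All 6 lie above their mean in EV and below it in Intracellular libraries, and miR-378a-3p lies at 2.12 in EV replicate 2 and at -2.33 in Intracellular replicate 1.

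Of 34 tested miRNAs that also lie in introns of protein-coding genes, 5 were called higher and 7 lower in EV (edgeR with TMM), where 25.3% of all rows tested were higher and 17.1% lower. With total counts 9 were higher and 0 lower, against 32.6% and 1.22% of all rows. Their median log2 difference was -0.28 with TMM and 0.33 with total counts. Among the most abundant, miR-152-3p (host Copz2) was higher with 33332 ± 11552 CPM in EV, against 7535 ± 1989 CPM in Intracellular libraries (log2 difference 1.50, edgeR adjusted p = 0.00017). miR-103-3p (hosts Pank2 and Pank3, kinases of coenzyme A synthesis) was lower with TMM (-0.67, edgeR adjusted p = 0.00866) but not with total counts (-0.06, adjusted p = 0.908). miR-26a-5p was likewise lower with TMM (-0.76, edgeR adjusted p = 0.0212) and not with total counts (-0.12, adjusted p = 0.67), while miR-191a-5p passed under neither (-0.26, adjusted p = 0.263, and 0.36, adjusted p = 0.402).

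Of 16 tested miRNAs known for lipid metabolism, insulin response or brown fat, 5 were called higher and 5 lower with TMM, and 6 and 0 with total counts, with medians of -0.20 and 0.44, beside 25.3% higher and 17.1% lower with TMM and 32.6% and 1.22% with total counts over all rows. miR-455-5p (log2 difference 2.21, edgeR adjusted p = 3.66e-07) and miR-193a-3p (2.52, adjusted p = 0.00363, from 16 EV counts, named after its values were seen) were higher under TMM. The other arm of the first, miR-455-3p, was not called (-0.63, edgeR adjusted p = 0.093). miR-365-3p was called lower with TMM (-0.80, edgeR adjusted p = 0.0482) and not with total counts (-0.21, adjusted p = 0.782). Both were also named after their values were seen. miR-27b-3p was lower (-0.68, edgeR adjusted p = 0.0331) with TMM and not with total counts (-0.04, adjusted p = 0.88). miR-143-3p, the most abundant miRNA of the list, did not pass under TMM (-0.88, edgeR adjusted p = 0.0538). The lists share members, among them miR-103-3p and miR-26a-5p.

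Some marker miRNAs of other sources were also higher in EV, read here against the 25.3% of all rows called higher and the 17.1% called lower with TMM. In the liver and serum list 1 of 3 tested was called higher, miR-122-5p (11476, 11158 and 13723 CPM in EV, against 344.7, 117.7 and 121.7 CPM in cells, log2 difference 5.09, edgeR adjusted p = 0.0129), and the list summed to 11612 to 14069 CPM in EV, against 397.1 to 476.3 CPM in Intracellular libraries, with no member at 0. Most of the EV sum was miR-122-5p. Its other members, miR-192-5p (0.15, edgeR adjusted p = 0.666) and miR-194-5p (0.14, adjusted p = 0.725), were not called with TMM. The erythroid list had 2 of 2 tested higher, miR-486 (39 EV counts) and miR-451-5p (10 EV counts), with sums of 151.5 to 221.6 CPM in EV, against 2.26 to 6.53 CPM in Intracellular libraries and with miR-144-3p and miR-144-5p at 0 in EV. Muscle miRNAs, of interest since miR-378a is abundant in muscle, had 3 tested, of which miR-486 and miR-206-3p were called higher and miR-499-5p lower with TMM. The lower call of miR-499-5p (-1.48, edgeR adjusted p = 0.000945) was lost with total counts (-0.90, adjusted p = 0.165). The muscle list summed to 281.6 to 369.4 CPM in EV, against 94.1 to 183.1 CPM in Intracellular libraries, below the level of miR-378a-3p in every library of the same group, and miR-133b-3p and miR-208b-3p were at 0 in EV. The list of myelinating glia had 1 of 3 higher (miR-138-5p, from 7 EV counts), with sums of 24.6 to 85.2 CPM in EV, against 32.6 to 47.9 CPM in Intracellular libraries and miR-219a-5p at 0 in EV. The leukocyte list summed to 216.6 to 265.2 CPM in EV, against 63.6 to 169.9 CPM in Intracellular libraries, with miR-142-5p and miR-223-3p at 0 in EV. Of its 2 tested members 0 were called with TMM, and miR-155-5p was called higher with total counts (1.21, edgeR adjusted p = 0.026, against 0.63 and 0.0753 with TMM). The endothelial pair, miR-126a-3p and miR-126a-5p, summed to 259.9 to 435.7 CPM in EV, against 141.4 to 390.3 CPM in Intracellular libraries, and passed under neither scaling. The part of other cell types, of serum and of depth in the level of miR-378a-3p was not tested.

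Sequence features were compared with those of all 552 known miRNAs. GC content was 52.4% in miR-378a-3p and 59.1% in miR-378a-5p, against a median of 47.8%, and 65.9% and 81.7% of known miRNAs had less. Of the short motifs described in miRNAs of vesicles, GGAG (named in human T cells as bound by hnRNPA2B1) was present in miR-378a-3p and miR-378b at bases 10 to 13, shown in capitals, and absent from miR-378a-5p.
miR-378a-3p with GGAG: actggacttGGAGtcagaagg
CCCU of the same work and GGCU (named in mouse hepatocytes as bound by SYNCRIP) were in none of the 3 rows. Motifs were searched on the miRNA strand alone. GGAG occurred in 44 known miRNAs, or 7.97%. Of the 25 tested with it, 8 were called higher and 3 lower in EV (edgeR with TMM). Beside these stand 51 called higher of the 265 known miRNAs without it, and 25.3% of all rows, which include predicted ones. The median log2 difference was 0.00 with the motif against -0.16 without it, or 0.59 against 0.46 with total counts. The motif is a match of letters, and binding was not measured.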

How the data were processed

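Per the labels' protocols, total RNA was ligated to a 3′ and then a 5′ adapter, reverse-transcribed, PCR-amplified and size-selected on a gel. No molecular identifiers are named. The submitters' processing notes name cutadapt and the build Rnor_6.0; the aligner, miRNA database, counting program and strand setting do not appear in the sources used here. The main deposited table gives counts, as whole numbers, of each mature miRNA. The TPM table, also deposited, equals the counts scaled to 1000000 per library within 4.78e-05. Each column was assigned to its sample through the group and number in its name.

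Counts were fitted with edgeR 4.0.16 (quasi-likelihood, R 4.3.3), TMM scaling and filterByExpr (minimum count 10, minimum total 15), EV minus Intracellular, without a replicate block. A call is a Benjamini-Hochberg adjusted p under 0.05 over the 328 rows that passed. Standard errors come from the F statistic. The fit was also run on simulated counts with a fixed dispersion and equal numbers of rises and falls. Such counts do not show how the fit behaves where scaling factors differ between the groups, as here. Alternatives were other scalings and filters, DESeq2 1.42.0, limma 3.58.1 on log2(TPM + 1) and log2(TPM + 0.1), known miRNAs alone, a replicate block and each library left out with the tested rows kept. Adding the counts of miR-3557-5p was chosen after its values were seen.

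Members and lists were chosen with earlier results of these data known. Named miRNAs are the family, up to 4 of each list by mean CPM, the 5 of nearest profile and the neighbours in EV level. Others were named after their values were seen.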

Additional observations from a re-analysis of the deposited data

How the results depend on the processing

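The log2 difference of miR-378a-3p was 2.64 with TMM and kept its direction in every alternative run, at 3.24 with total counts, 3.27 with limma on log2(TPM + 1) or log2(TPM + 0.1), 2.66 with DESeq2, 2.36 to 2.83 with any 1 library left out, and 1.12 with the counts of miR-3557-5p added, an alternative chosen after the data were seen. For miR-378a-5p it was -1.12 and ran from -2.41 to -0.54, with few EV counts behind each value. The log2 difference in arm ratio was -2.88, and it was -3.88 with a prior count of 0.25, -1.37 with miR-3557-5p added and -3.48 to -2.55 with a library left out. Relative to reference miRNAs the difference was 2.97, and it was 3.37 against miR-26a-5p alone, 2.39 against miR-24-3p alone and 2.70 to 3.24 with a library left out. Over all rows, 83 were called higher and 56 lower. Calls of lower rows were 4 with total counts, 92 with upper-quartile scaling, 36 with at least 10 counts in 3 libraries, 37 among known miRNAs alone, 4 and 2 with limma at the larger and smaller pseudocount, and 18 (without EV replicate 1) to 58 with a library left out; 26 were lower without EV replicate 2 and 36 without Intracellular replicate 3. Calls of higher rows were 197 without a low-count filter and 63 to 91 with a library left out. The causes of these shifts were not tested.

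Whether replicate numbers pair the samples could not be decided. Deviations from the group means correlated across rows at 0.0336, 0.0887 and -0.0232 for replicates 1, 2 and 3. EV replicates 1 and 2 but not 3 correlated best with their own number. With 3 libraries per group and low EV depth, such small values neither show nor exclude pairing. With a replicate block the log2 difference was 2.61 for miR-378a-3p and -1.09 for miR-378a-5p, and 87 rows were called higher and 46 lower. The low depth of EV libraries, where 1 count is 9.47 CPM or more, limits what can be said of miR-378a-5p and miR-378b.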

Other observations

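Among the known miRNAs of the table, 14 pairs of rows, miR-378a-3p and miR-3557-5p included, were reverse complements of each other over at least 18 bases. In 5 of these pairs both rows passed the filter. In the pair of miR-151-5p and miR-3586-3p the less abundant row took 22.7% of the counts of both in EV and 24.9% in Intracellular libraries. For miR-183-5p and miR-3553 the less abundant row took 24.7% in EV and 16.8% in Intracellular libraries, and for miR-299a-3p and miR-299a-5p it took 16.3% in EV and 23.4% in Intracellular libraries. For miR-409b and miR-409a-3p it took 2.57% in EV and 1.19% in Intracellular libraries. For miR-378a-3p, the less abundant row of its pair by Intracellular counts, the shares were 59.0% in EV, against 21.0% in Intracellular libraries. In the other pairs a row did not pass the filter, the less abundant row had at most 7 EV counts, and some shares differed by a larger ratio. Among them were 16.3% in EV and 0.505% in Intracellular libraries for miR-299b-5p beside miR-299a-3p, 7.14% in EV and 0.581% in Intracellular libraries for miR-3065-3p beside miR-338-5p, and 33.3% in EV and 2.13% in Intracellular libraries for miR-505-3p beside miR-3589. Another was miR-378b, also paired with miR-3557-5p, at 0.26% in EV, from 2 counts, and 0.0238% in Intracellular libraries. These pairs were looked for after the values of miR-3557-5p were seen, and how the reads of such pairs were assigned was not tested.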
